A study of Homo sapiens with 12 samples.

Results

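U95 and U96a are small nucleolar RNAs (snoRNAs) that lie in neighbouring introns of RACK1 (also called GNB2L1), the gene of a scaffold protein of the small ribosomal subunit. The deposited tables list them as sno-U95 and sno-U96a, and these 2 RNAs are set here beside the 289 snoRNAs and 1380 noncoding RNAs that either table lists. U95 was chosen by its measured increase in 5-lipoxygenase (5-LO) knockout cells, whereas U96a was taken because it shares the host gene. The knockout to wild-type values of U95, and every comparison of U95 with U96a between genotypes, are therefore descriptions. The same holds for comparisons of U95 with and without LPS within 5-LOΔ cells, since values of these cells entered the choice.

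Mono Mac 6 (MM6) cells are an established human monocytic leukemia line in which 5-LO, the enzyme that starts leukotriene synthesis, appears upon differentiation. Wild-type and 5-LOΔ MM6 cells were both differentiated for 72 h in the presence of TGF-β (1 ng/mL) plus calcitriol (50 nM). LPS (1 µg/mL) was either left out or added 6 h before harvest. The study's general culture methods give a longer differentiation time than the 72 h used here. No group was left undifferentiated. Total RNA of 12 libraries, 3 in each of the 4 groups, was sequenced after a size selection meant for pre- and mature miRNAs. The 5-LOΔ cells were CRISPR/Cas9 clones, numbers 3 and 15 in the study's methods, and the labels do not say which clone a library came from, so that the effect of the knockout and a trait of a clone cannot be told apart.

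Most snoRNAs of human cells are cut out of the introns of a host gene. After splicing, the intron is opened and trimmed by exonucleases up to the proteins that cover the snoRNA, so that the mature RNA is released from the same transcript as the host mRNA. Box C/D snoRNAs such as U95 and U96a bind fibrillarin and carry a box C near the 5′ end and a box D near the 3′ end. They place a 2′-O-methyl group on the ribose of the rRNA nucleotide that pairs with the fifth nucleotide upstream of box D. U95 is known as a guide for 28S rRNA and U96a for 5.8S rRNA. Many hosts of box C/D snoRNAs code for ribosomal proteins and translation factors.

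RACK1 occupied chr5:180663897-180675096 on the minus strand of GRCh37. Its canonical transcript had 8 exons over 7010 bases and started at position 180670906. U95 (symbol SNORD95) was a 68-base RNA at chr5:180670312-180670379, in intron 1 of 7, an intron of 1346 bases, with 312 bases to the upstream exon and 966 bases to the downstream exon. U96a (symbol SNORD96A) was a 79-base RNA at chr5:180668814-180668892, in intron 2, an intron of 534 bases, with 281 and 174 bases to its flanking exons. Both lay on the strand of RACK1, 1419 bases apart. Of the 35 annotated RACK1 transcripts, 25 spanned U95 and 26 spanned U96a, while 4 and 2 transcripts, respectively, had an exon that overlapped the snoRNA.

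**Figure D1:**
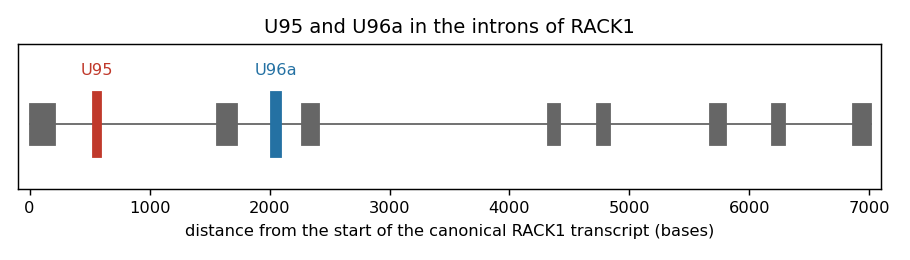
Map of the canonical RACK1 transcript, with the distance from its start in bases on the x axis, exons as grey boxes, introns as a line, U95 in red and U96a in blue. U95 starts 527 bases and U96a 2014 bases from the start of the transcript, in adjacent introns.

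The sequences of both snoRNAs are shown because the boxes and the guide elements are read from them, together with the annotated copies whose reads could be assigned to the same entry. Capitals mark box C (TGATGA) and box D (CTGA), and every sequence is DNA of GRCh37, 5′ to 3′ on the strand of the RNA. The annotation gives a further copy of SNORD95 at chr9:84503833-84503900 on the plus strand, and SNORD96B, which encodes U96b, at chrX:109468213-109468291 on the minus strand.
U95: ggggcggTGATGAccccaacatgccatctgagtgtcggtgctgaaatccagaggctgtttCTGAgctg
U95 copy: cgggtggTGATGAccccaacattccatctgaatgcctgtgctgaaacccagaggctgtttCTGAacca
U96a: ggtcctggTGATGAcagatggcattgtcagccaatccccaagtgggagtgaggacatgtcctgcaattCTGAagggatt
U96b: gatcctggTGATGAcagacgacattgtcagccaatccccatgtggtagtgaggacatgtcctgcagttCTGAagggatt

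Both boxes were present in full in all 4 sequences. As a background for these letters, TGATGA followed by CTGA was searched on the strand of the RNA. It was found in 58.9% of 380 annotated SNORD genes (box C/D) and in 0.263% of 380 SNORA genes (box H/ACA). Genes on 1 chromosome were left out of both sets. U95 differed from its copy on chromosome 9 at 10 of 68 positions (85.3% identity), and the longest run of identical bases was 17. Counted from 1 at the 5′ end of U95, the differences were G1C, C5T, G23T, G32A, T35C, G37T, T47C, G65A, T67C and G68A. U96a differed from U96b at 6 of 79 positions (92.4% identity), namely G2A, T19C, G21A, A41T, G46T and A66G, with 19 identical bases at most in a row. The tables hold a single U95 entry and separate entries for U96a and U96b. How reads that match more than 1 copy were assigned is not given in the sources used here, so that the U95 values may include reads of its copy.

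The guide elements were located by searching the bases before each box D or inner CTGA for antisense matches to the ribosomal DNA contig of GRCh37, GL000220.1. In U95, the 12 bases CCAGAGGCTGTT (positions 48 to 59) ended 1 base before box D and paired with GL000220.1:116159-116170, which reads aacAgcctctgg, where the capital A marks the base opposite the fifth nucleotide upstream of box D. A second stretch of U95, the 11 bases CCAACATGCCA (positions 16 to 26) before the inner CTGA at position 28, paired with the overlapping bases GL000220.1:116168-116178, which read tggCatgttgg. The bases marked in capitals were at positions 116162 and 116171 of the contig. In U96a, the 12 bases TGTCCTGCAATT (positions 57 to 68) lay directly before box D and paired with GL000220.1:112094-112105, which reads aattGcaggaca. That window falls in the stretch of the contig that aligned to the annotated 5.8S pseudogene RNA5-8SP2 at 118 of 152 bases (77.6%). The same search gave a shorter match of U95, the 9 bases GTGTCGGTG (positions 32 to 40) before the inner CTGA at position 41, to GL000220.1:61012-61020. Each of the 3 longer elements also matched a further site on the contig, at GL000220.1:160131-160142, GL000220.1:160140-160150 and GL000220.1:156066-156077 in the order given. These are matches of letters, and methylation was not measured.

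The deposited values are the authors' means of normalized counts over the libraries of a genotype, so that the spread between replicates of U95 and U96a cannot be had and no test between groups was run here. Test columns of the authors' own comparison were not used. The 2 tables, 1 without and 1 with LPS, held 1231 and 1139 noncoding RNAs, of which 287 each were snoRNAs. Size factors of the 12 libraries, recovered from the low means, ranged from 0.665 to 1.72, and they give 95% intervals that cover counting error only, since reads without molecular identifiers are not independent molecules. They say nothing about the spread between cultures. The targeted gene codes for a protein and is in neither table of noncoding RNAs, so the labels could not be checked on it. In bulk RNA of this kind, fewer expressing cells and less RNA per cell cannot be told apart.

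Without LPS, U95 was low against U96a in wild-type cells and at about its level in 5-LOΔ cells. The mean normalized count of U95 was 6773 (95% counting interval 6681 to 6865) in wild-type cells and 20665 (20497 to 20833) in 5-LOΔ cells. The mean of U96a was 22130 (21964 to 22296) in wild-type cells and 19196 (19035 to 19358) in 5-LOΔ cells. Thus, 5-LOΔ cells held 3.05 times as much U95 and 0.867 times as much U96a as wild-type cells. In log2 units, the knockout to wild-type ratio was 1.61 (1.59 to 1.63) for U95 and -0.21 (-0.22 to -0.19) for U96a.

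With LPS, the same order of groups was seen for U95 at a smaller distance. The mean normalized count of U95 was 5624 (5539 to 5709) in wild-type cells and 11786 (11659 to 11913) in 5-LOΔ cells. The mean of U96a was 18764 (18609 to 18920) in wild-type cells and 19923 (19759 to 20088) in 5-LOΔ cells. The knockout to wild-type ratio was 2.10 for U95, a log2 ratio of 1.07 (1.04 to 1.09), and 1.06 for U96a, a log2 ratio of 0.09 (0.07 to 0.10). In both tables the ratio of U96a was small beside that of U95, and with LPS it was 0.016 in log2 units when both genotypes were scaled to equal sums of all means.

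**Figure D2:**
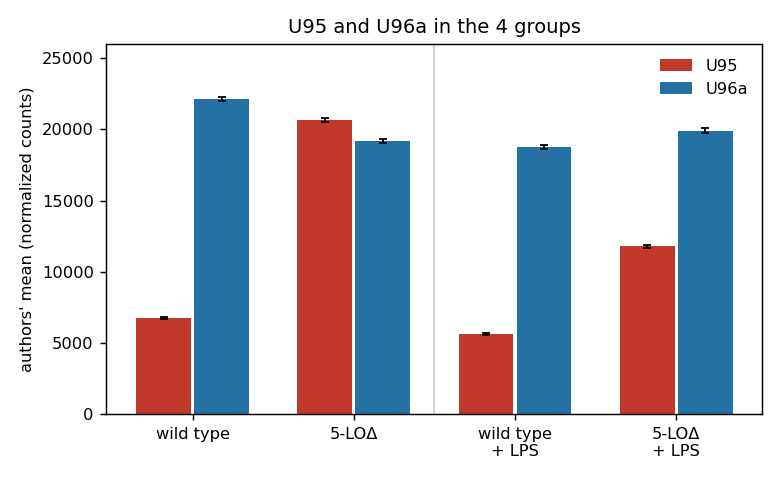
Authors' mean of normalized counts (y axis) of U95 (red) and U96a (blue) in the 4 groups (x axis), with 95% counting intervals as error bars and a vertical line between the separately normalized tables. U95 lies at 6773 and 5624 in wild-type cells and at 20665 and 11786 in 5-LOΔ cells, while U96a stays between 18764 and 22130.

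Both snoRNAs belonged to the better covered ones. Among the 287 snoRNAs of its table, U95 ranked 74 by mean normalized count in wild-type and 40 in 5-LOΔ cells without LPS, and 77 and 48 with LPS. U96a ranked 38, 41, 40 and 38 in wild-type cells, 5-LOΔ cells, wild-type cells with LPS and 5-LOΔ cells with LPS. As a share of the summed snoRNA means, U95 made up 0.0978% in wild-type and 0.286% in 5-LOΔ cells without LPS, and 0.0905% and 0.193% with LPS. The share of U96a was 0.320% and 0.266% without LPS, and 0.302% and 0.325% with LPS.

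Per base of the annotated RNA, the level of U95 was 99.6 normalized counts in wild-type cells without LPS, 304 in 5-LOΔ cells without LPS, 82.7 in wild-type cells with LPS and 173 in 5-LOΔ cells with LPS. The corresponding levels of U96a were 280, 243, 238 and 252. On this per-base scale U95 was the lower of the pair in 3 groups and the higher one in 5-LOΔ cells without LPS. A read of 75 bases covers all of U95 but not all of U96a, and the tables do not show whether whole snoRNAs or fragments were read.

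The ratio of U95 to U96a within a group is free of any factor common to that group or its table, though the mean over 3 libraries keeps the authors' scaling of libraries within the group. This ratio was higher in both knockout groups than in both wild-type groups, by means whose spread between cultures is unknown. The ratio of the mean counts was 0.306 (0.301 to 0.311) in wild-type cells, 1.08 (1.06 to 1.09) in 5-LOΔ cells, 0.300 (0.295 to 0.305) in wild-type cells with LPS and 0.592 (0.584 to 0.600) in 5-LOΔ cells with LPS. U95 thus made up 23.4%, 51.8%, 23.1% and 37.2% of the pair. The wild-type ratios with and without LPS were near each other, and the ratio in 5-LOΔ cells with LPS lay between them and the ratio in 5-LOΔ cells without LPS.

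On the log2 scale, the ratio of U95 to U96a was 1.81 (1.79 to 1.84) higher in 5-LOΔ than in wild-type cells without LPS, and 0.98 (0.95 to 1.01) higher with LPS. These 2 differences were 0.83 log2 units apart, the value with LPS minus that without being -0.83 (-0.88 to -0.79). Between LPS and no LPS, the log2 ratio of the pair differed by -0.03 (-0.06 to 0.0034) in wild-type cells, an interval that includes 0, and by -0.86 (-0.89 to -0.84) in 5-LOΔ cells. The value in 5-LOΔ cells, and its contrast with wild-type cells, draw on the increase for which U95 was chosen. Whether the LPS difference between genotypes is larger than the spread between cultures was not tested, since no single-library values of the pair were used. The sum of both means was 28903 in wild-type and 39861 in 5-LOΔ cells without LPS, and 24388 and 31709 with LPS.

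The table without LPS and the table with LPS were normalized separately, so that levels were set across them only after the median of the RNAs they share was brought to 0, which raised the deposited log2 ratios by 0.19 in wild-type and 0.20 in 5-LOΔ cells. After that step, the log2 ratio of LPS to no LPS was -0.08 for U95 and -0.05 for U96a in wild-type cells. In 5-LOΔ cells it was -0.61 for U95 and 0.25 for U96a. U95 in 5-LOΔ cells ranked 9 from the lowest of 275 snoRNAs by this ratio and U96a ranked 221, whereas in wild-type cells U95 ranked 52 and U96a 74 from the lowest of 277. The rank of U95 in 5-LOΔ cells is not independent of its choice by its increase in these cells. Neither RNA passed 2-fold between LPS and no LPS. Of all snoRNAs compared, 0.364% were higher and 0.727% lower by 2-fold or more with LPS in 5-LOΔ cells, and 0% were so in either direction in wild-type cells.

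Among all RNAs with a mean of at least 10 in the higher genotype and above 0 in both, the share of snoRNAs that differed 2-fold between genotypes was small. Past 2-fold, 6 of 276 snoRNAs (2.17%) were higher and 5 (1.81%) lower in 5-LOΔ cells without LPS, and with LPS 5 of 277 (1.81%) were higher and 1 (0.361%) lower. Both counts of higher snoRNAs include U91 and mgU12-22/U4-8, entries with identical means that may stand for the same reads. Over all noncoding RNAs, 4.23% of 685 were higher and 6.57% lower without LPS, 10.8% in all, and 2.99% of 670 were higher and 8.96% lower with LPS, 11.9% in all. U95 was among those that were higher in both tables and U96a was in no such count. With both genotypes scaled to equal sums of all means, the log2 ratio of U95 with LPS was 0.997, just under 2-fold. Since U95 was picked for this difference, its place in these counts adds nothing to it.

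U95 had the highest knockout to wild-type ratio of the 276 snoRNAs without LPS and was at rank 5 of 277 with LPS. The snoRNA quartiles of this log2 ratio were -0.25 and 0.36 around a median of 0.05 without LPS, and -0.31 and 0.38 around a median of 0.01 with LPS. U96a, at ranks 200 and 125, was inside the quartiles in both tables. Among all noncoding RNAs, U95 was at rank 7 of 685 without LPS and 19 of 670 with LPS.

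The snoRNAs next to U95 in this order without LPS were 3 H/ACA snoRNAs, the class that guides pseudouridylation. HBI-115 had means of 41.6 in wild-type and 97.7 in 5-LOΔ cells, a log2 ratio of 1.23 (0.93 to 1.53). ACA67 had means of 116 and 260, a log2 ratio of 1.16 (0.98 to 1.35), and U99 had means of 434 and 898, a log2 ratio of 1.05 (0.95 to 1.14). All 3 were sparser than U95 by a wide margin, which is why their counting intervals are broader.

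With LPS, the 3 entries directly above U95 were also sparse. HBI-115 had means of 32.1 in wild-type and 79.4 in 5-LOΔ cells, a log2 ratio of 1.31 (0.96 to 1.65). The entries U91 and mgU12-22/U4-8 had identical means in every group, with LPS 22.5 and 54.7, and a log2 ratio of 1.28 (0.87 to 1.70). Below U95 were ACA52 at 0.95 (0.77 to 1.13), U85 at 0.88 (0.56 to 1.20) and HBII-52-23, one of many near-identical copies whose reads may be split, at 0.88 (0.81 to 0.94). Of the snoRNAs with a mean of at least 1000 in the higher genotype, U95 had the highest ratio in both tables, and 1 of 132 (0.758%) without LPS and 1 of 127 (0.787%) with LPS was higher by 2-fold or more, which was U95 itself. The next of these snoRNAs without LPS was HBII-420, with means of 182082 and 329849 and a log2 ratio of 0.86, and with LPS HBII-52-23, with means of 985 and 1813.

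**Figure D3:**
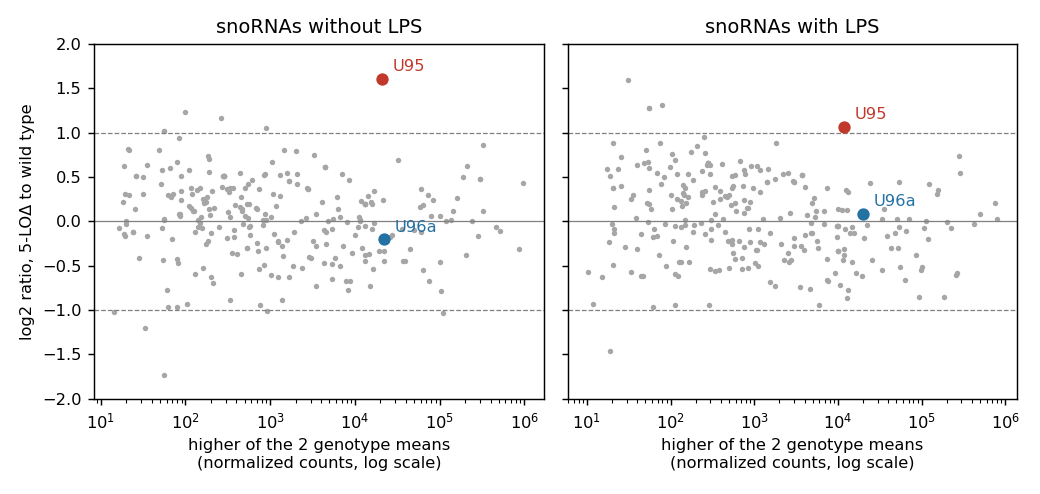
Log2 ratio of 5-LOΔ to wild-type cells (y axis) against the higher of both genotype means in normalized counts (x axis, log scale) for each snoRNA (grey points) without LPS (left) and with LPS (right), with dashed lines at 2-fold. U95 (red) lies at 1.61 and 1.07 and U96a (blue) at -0.21 and 0.09.

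U96b, the X-chromosomal relative of U96a, was listed at means of 4.96 in wild-type and 9.75 in 5-LOΔ cells without LPS, and 4.85 and 4.49 with LPS, which is 0.0224% to 0.0508% of U96a. At this depth its means gave back whole reads of each library. The libraries of wild-type cells held 2, 2 and 10 reads of U96b, those of 5-LOΔ cells 14, 6 and 9, those of wild-type cells with LPS 7, 8 and 2, and those of 5-LOΔ cells with LPS 8, 2 and 4. After division by the size factors, the normalized counts were 1.60, 1.97 and 11.3 for the wild-type libraries and 10.5, 6.35 and 12.4 for the 5-LOΔ libraries. These ranges overlapped, and so did those with LPS, 4.07, 7.46 and 3.01 in wild-type and 6.15, 2.40 and 4.93 in 5-LOΔ cells. The 3 wild-type libraries without LPS alone reached from 1.60 to 11.3. The means of U95 and U96a are too high for such a recovery.

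To set the distance between U95 and U96a beside that of other snoRNAs of 1 host, 259 of the 289 snoRNA names were placed in a host gene through RefSeq. Without LPS, 32 hosts had at least 2 measured snoRNAs, and the median distance between the highest and the lowest log2 knockout to wild-type ratio of a host was 0.504. RACK1, with a distance of 1.81, was at rank 3 after SNHG14, which holds 64 measured snoRNAs of repeated families (2.01), and TAF1D, which holds 6 snoRNAs (1.92). In TAF1D the lowest member was ACA40, at a log2 ratio of -1.74 and with a lowest mean of 16.6. Of the 19 hosts with exactly 2 measured snoRNAs the median distance was 0.288, and the widest after RACK1 was that of RPS3A, 0.981, which rests on U73b at means of 12.1 and 18.8. The next was RPL23A, 0.945, with a lowest mean of 3100. The narrowest host was RPS12, with 0.0519 between ACA33 and U101.

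With LPS, RACK1 was at rank 5 of 33 hosts with a distance of 0.98, beside a median of 0.515. SNHG14 (1.85), RPL23A (1.28), DKC1 (1.24) and SNHG32 (1.16) were wider. DKC1 owes its rank to ACA56, whose lower mean was 6.92, under the minimum of 10, and its distance without LPS was 0.140. In RPL23A, a ribosomal protein gene, the distance was between Z17B at -0.74 and U42A at 0.55. The median of the 20 hosts with exactly 2 measured snoRNAs was 0.276, and the narrowest distance was that of UBAP2, 0.000757 between SNORD121A and SNORD121B. RACK1 was therefore among the hosts with the most unequal snoRNAs in both tables, but not the first in either. The distance of RACK1 follows from the choice of U95.

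**Figure D4:**
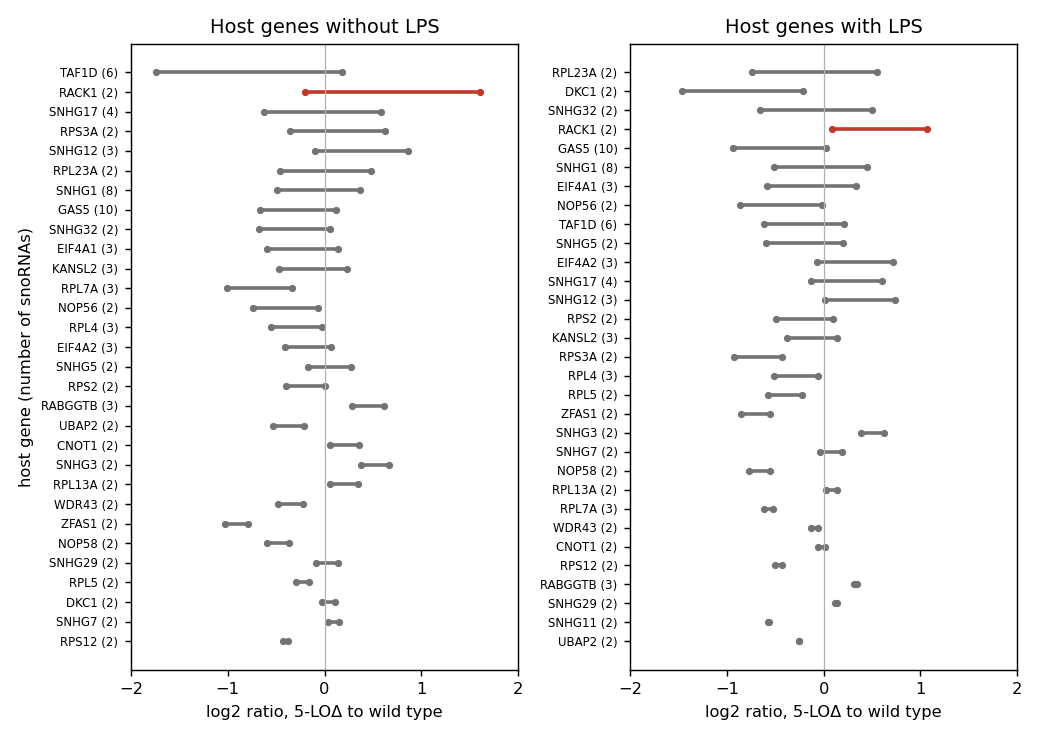
Log2 ratio of 5-LOΔ to wild-type cells (x axis) of the lowest and the highest snoRNA (points joined by a line) of each host gene with at least 2 measured snoRNAs (y axis, number of snoRNAs in brackets), without LPS (left) and with LPS (right), with SNHG14 and its 64 snoRNAs and 1 further host left out. RACK1 (red) reaches from -0.21 to 1.61 and from 0.09 to 1.07.

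The course of the pair over all 4 groups was compared with that of other pairs of 1 host, leaving out SNHG14. Over 135 pairs of 29 hosts in which every mean was at least 10, the log2 ratio within a pair moved over a median range of 0.560, and that of U95 and U96a moved over 1.84, at rank 3 after pairs of TAF1D that contain ACA40. Of the 82 pairs of 12 hosts in which every mean was at least 1000, U95 and U96a had the widest range, followed by Z17B and U42A of RPL23A with 1.45, beside a median of 0.516. Between both wild-type groups, the log2 ratio of U95 to U96a differed by 0.03, and the median absolute difference of the 135 pairs was 0.0884. Pairs of 1 host share members and are not independent. The range of U95 and U96a follows from the choice of U95, and the minimum of 1000 was set after seeing the data. The rank of this pair therefore adds nothing to its values.

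**Figure D5:**
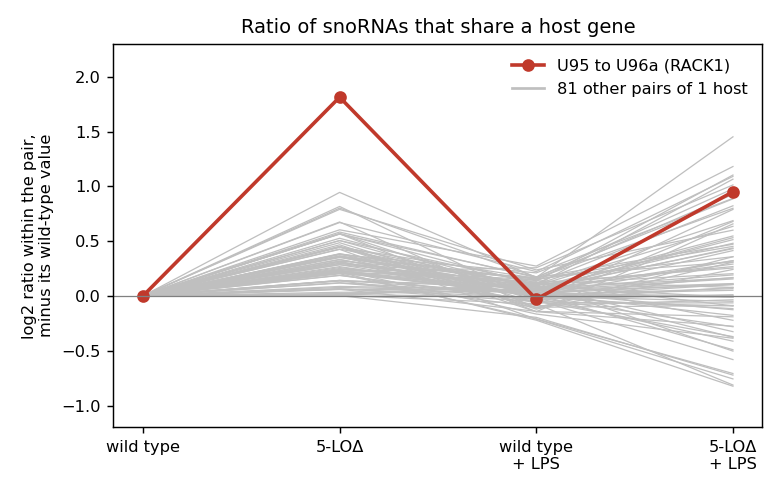
Log2 ratio within each pair of snoRNAs of 1 host gene minus its wild-type value without LPS (y axis) in the 4 groups (x axis), each pair turned so that the snoRNA with the higher 5-LOΔ to wild-type ratio without LPS is on top, for 82 pairs with all means of at least 1000. U95 to U96a (red) reaches 1.81 in 5-LOΔ cells, where the next pair reaches 0.95, then -0.03 in wild-type and 0.95 in 5-LOΔ cells with LPS, where 7 of the 81 other pairs (grey) are higher. U95 was chosen for its increase in 5-LOΔ cells.

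The snoRNAs whose pattern over the 4 groups was nearest to U95 and to U96a formed separate lists of 5. By Euclidean distance between centred log2 means over 4 groups, among 272 snoRNAs, the nearest to U95 were HBI-115 (0.376), ACA67 (0.499), U89 (0.578), U91 (0.583) and mgU12-22/U4-8 (0.583), where the median distance was 1.40. U96a, at a distance of 1.53, was at rank 169 for U95. The nearest to U96a were HBII-210 (0.0781), U26 (0.0823), HBII-135 (0.0916), U105B (0.0988) and U28 (0.113), beside a median distance of 0.457, and U95 was the farthest of all 272. With 4 group means these distances only describe a likeness of values. Those of U95 also follow from its choice by its increase in 5-LOΔ cells.

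Box C/D snoRNAs in introns of other ribosomal protein and translation factor genes were counted against the same 2-fold limit. Of 27 such snoRNAs in 18 hosts, 0 were higher and 1 was lower by 2-fold or more in 5-LOΔ cells without LPS, beside 2.17% and 1.81% of all snoRNAs. With so few snoRNAs, such counts lie near the share over all snoRNAs. The lower one was U36A of RPL7A, with means of 913 and 453 and a log2 ratio of -1.01. The median log2 ratio of these snoRNAs was -0.0012, against 0.05 over all snoRNAs. With LPS, 0 were past 2-fold in either direction, beside 1.81% and 0.361%. The values with LPS reached from -0.93 (U73b of RPS3A) to 0.55 (U42A of RPL23A) around a median of -0.15. U73b was sparse, with means of 11.7 and 6.15 with LPS, and its log2 ratio without LPS was 0.63.

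Of the rRNA entries of the tables, that of the large subunit is nearest to the known target of U95, 28S rRNA, and no value is given for 5.8S rRNA. The large subunit entry had means of 74455 in wild-type and 86116 in 5-LOΔ cells without LPS, a log2 ratio of 0.21, and 63135 and 76162 with LPS, a log2 ratio of 0.27. The small subunit entry, which neither snoRNA is known to guide on, had log2 ratios of -0.46 and -0.05, and the 5S entry of 0.64 and 0.46. These entries count short pieces of rRNA after size selection and do not measure ribosomes or their methylation.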

How the data were processed

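Small RNA libraries were made by the authors from 1 µg of total RNA with a Lexogen kit, size selected to 130 to 260 bp including 126 bp of linkers, and sequenced as single reads of 75 bp. The authors trimmed the adapters, annotated reads against hg19 and normalized them with omiRas. For the aligner, its settings and the way libraries were scaled, nothing is stated in the sources used here. The deposited signal columns hold the authors' mean of normalized counts over the libraries of a genotype. The log2 ratio, p-value and FDR columns of the authors' own comparison were not used.

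Samples were grouped by genotype and LPS from their labels. Since the tables hold means, limma could not be run, no p-value is given, and a ratio is that of 2 means without a pseudocount. Means of at most 10 are sums of whole multiples of 3 steps, which gave the size factors. All 128 to 136 such distinct values of a group came out whole within the rounding of 6 digits, against 0% to 3.13% when the values were moved. Counting intervals were set from these steps. On independent (Poisson) reads simulated from the same means, they covered 93.0% to 93.9% of the true means in the 4 groups (430 to 447 RNAs). The intervals assume this same model, so the simulation checks the computation and not the behaviour of real reads. RNAs with a mean of at least 10 in the higher genotype were ranked.

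Positions and sequences came from the GRCh37 genome and GENCODE genes mapped onto that build. Hosts came from which RefSeq gene contains which snoRNA in a GRCh38 table without strand, not from the lifted annotation as planned, because that annotation misplaces or lacks several snoRNAs. Named snoRNAs were both RACK1 snoRNAs, other entries named U95 or U96, the 3 next above and below U95 by ratio in each table, the 5 nearest in pattern to each, and the hosts with the widest and narrowest distances. HBII-420, ACA40, hosts wider than RACK1, snoRNAs at the ends of the ribosomal host range and the rRNA entries were named after their values were seen. The values of 1 host gene are not reported here. The snoRNAs and lists were chosen with earlier results of these data known. Python 3.11.15, numpy 2.4.6, pandas 2.3.3 and matplotlib 3.10.9 were used.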

Additional observations from a re-analysis of the deposited data

How the results depend on the processing

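A factor common to a genotype cancels in the difference between the log2 ratios of U95 and U96a, but other scalings of libraries within a group could not be tried. With a pseudocount of 1 or 10, this difference and the ratios of both RNAs stayed within their counting intervals. Without LPS, the log2 ratio of U95 was 1.43 with equal sums of all means, 1.55 with equal sums of snoRNA means and 1.59 with the median of all RNAs at 0. The same scalings gave -0.38, -0.26 and -0.23 for U96a. With LPS, U95 was at 1.00 with equal sums of all means, below 2-fold, and at 1.10 with the median at 0, and U96a was at 0.016, 0.11 and 0.11 with the 3 scalings. No direction turned.

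Without LPS, 74 noncoding RNAs differed 2-fold or more, 162 with no minimum mean, 25 with a minimum of 100 and 33 with a pseudocount of 10. With LPS, the counts were 80, 160, 29 and 51. The minimum mean of 1000 and the median of shared RNAs were chosen after seeing the data. No paired analysis was possible because the deposited columns are means that carry no replicate number, and for the same reason no replicate could be left out for U95 and U96a. The error between cultures is thus unknown for every ratio given here.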
